A study of Mus musculus with 24 samples.

Results

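Cadherins are calcium-dependent adhesion molecules of the cell surface, and 50 genes of this superfamily were compared between wild type and Nipbl+/- hindlimb buds. The members were the genes whose array probe set carried a single symbol formed of Cdh and a number, or beginning with Pcdh, with Pcdhb16 to Pcdhb22 left to one side. They were represented by 54 probe sets, and the brightest probe set over all 24 arrays was used for each gene. The 50 genes, of 19937 in all, comprised 23 numbered cadherins, 12 protocadherins that lie outside the protocadherin clusters and the 15 genes Pcdhb1 to Pcdhb15. No probe set carried a single Pcdha or Pcdhg symbol, so the alpha and gamma clusters had 0 members.

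RNA from the right and left hindlimb buds of each mouse embryo, collected at E10.5, was hybridised to an array of its own. There were 12 wild type embryos and 12 stage-matched embryos heterozygous for a mutation of Nipbl, which encodes the protein that loads cohesin onto chromosomes, and neither group was treated. The mutation is carried in every tissue, and a wild type allele remains in the mutant embryos. The array intensity of Nipbl had a mutant to wild type ratio of 0.630 and lay below the mean of the wild type in 12 of 12 mutant embryos (limma, adjusted p = 2.42e-09). Sex was not balanced, with 8 females among the wild type and 3 among the mutant embryos. The interquartile range of the log2 values was narrowest in wild type embryo 3 and mutant embryos 2 and 9 (3.34, 3.40 and 3.44, against 3.51 or more on the other arrays). The dissected bud holds several cell types, and all 8 mesenchyme, 13 ectoderm and 12 endothelial marker genes were brighter than the level exceeded by 5% of olfactory receptor genes (a log2 intensity of 6.31), which are not expected in a limb bud and served as a guide to dim signal. Of the 50 members, 28 exceeded that level.

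Classical cadherins join like cells to one another through their outermost extracellular repeats, and their tails bind p120-catenin and beta-catenin, which connect the junction to actin through alpha-catenin. The type I group includes the epithelial Cdh1, the neural and mesenchymal Cdh2 and the placental and ectodermal Cdh3, and the type II group includes Cdh11 of mesenchyme and Cdh5 of endothelium. Protocadherins have other tails that do not bind beta-catenin. Those of the alpha, beta and gamma clusters are known for giving neurons individual surface identities, whereas the non-clustered delta-protocadherins, such as Pcdh10 and Pcdh18, are expressed in regional patterns and several act on cell movement through the WAVE actin regulators.

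Cdh2, which encodes N-cadherin, was the only one of the 50 members to pass the test, and it fell in Nipbl+/- hindlimb buds. Calls were made at an adjusted p under 0.05 over all genes. By this rule 1 member was lower, against 0.527% of all genes, and 0 were higher, against 0.286% of all genes. At an unadjusted p under 0.05 from limma, 14 members were lower and 1 was higher, against 5.14% and 4.13% of all genes. The log2 difference (mutant minus wild type) was below 0 for 42 of the 50 members, or 84%, against 53.5% of all genes. The median over the members was -0.055, against -0.0049 over all genes. In tissue samples of this kind, fewer cells of a type and less RNA per cell cannot be told apart.

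The log2 intensity of Cdh2, on chromosome 18, ran from 10.57 to 10.90 in wild type embryos, with a median of 10.68. In Nipbl+/- embryos it ran from 10.43 to 10.75, with a median of 10.502. The groups overlapped through 2 mutant embryos, and the other 10 lay below the lowest wild type embryo. The log2 difference was -0.19 (standard error 0.045, ratio 0.877, limma adjusted p = 0.0372), and 11 of 12 mutant embryos lay below the mean of the wild type. Within sexes, the log2 difference was -0.14 between 4 wild type and 9 mutant males and -0.21 between 8 wild type and 3 mutant females. The call was lost once embryo sex was a covariate (limma, adjusted p = 0.128), with array medians set to 0 (0.106), with the replicate number as a block (0.0621) and without the 3 arrays of narrow interquartile range (0.0765), while the log2 difference stayed between -0.19 and -0.17 over the 12 alternatives.

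Cdh11, the type II cadherin of loose mesenchyme and bone precursors, ran from 12.31 to 12.52 in wild type embryos (median 12.41). It ran from 12.11 to 12.35 in mutant embryos (median 12.30). Every mutant embryo lay below the mean of the wild type, and 6 of 12 lay below the lowest wild type embryo. The log2 difference of -0.14 (standard error 0.034, ratio 0.910) did not pass the test in the main fit (limma, adjusted p = 0.0545), and it passed in 8 of 12 alternatives, with adjusted p from 0.00969 to 0.299. Among 8 mesenchyme markers, 0 were called in either direction, and the mean log2 level of the list ran between 11.05 and 11.29 in wild type and between 11.02 and 11.25 in mutant embryos. The mean over the list differed by -0.055 (mutant minus wild type), with 9 of 12 mutant embryos under the average of the wild type and 3 under its lowest embryo. The genes with the smallest p in that list were Col1a2, a collagen chain, with a log2 difference of -0.28 (limma, adjusted p = 0.265), and Pdgfra, a growth factor receptor, with -0.13 (0.356). The part of these markers in the genotype differences of Cdh2 and Cdh11 was not tested.

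**Figure D1:**
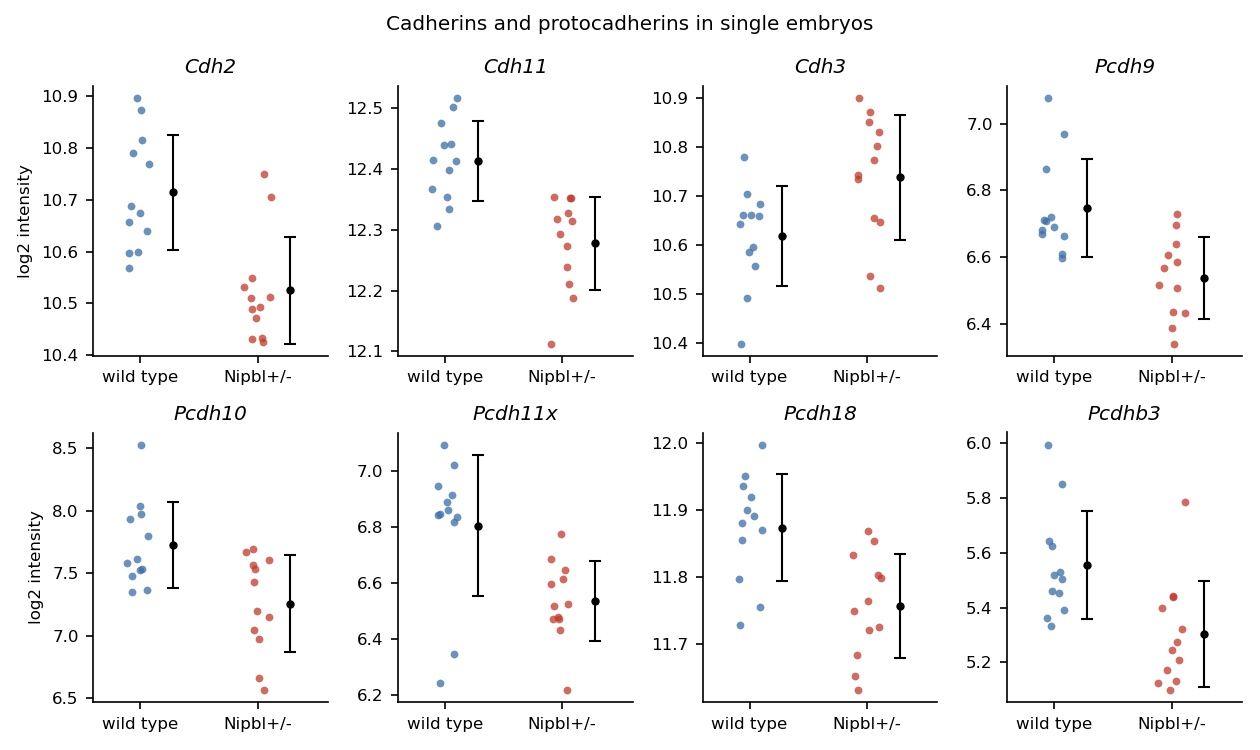
Log2 intensity of 8 members for single embryos, of which 12 were wild type (blue) and 12 Nipbl+/- (red), and black marks give the mean and SD of a genotype. Each panel has its own vertical axis, which does not start at 0. For Cdh2, 10 of 12 mutant embryos lie below the lowest wild type embryo, and for Pcdh11x 2 wild type embryos lie apart from the other wild type embryos, within the range of the mutant embryos.

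Of the 23 numbered cadherins, 1 was called lower, against 0.527% of all genes, and 22 did not pass. At an unadjusted p under 0.05 from limma, 5 were lower and 1 higher, against 5.14% and 4.13% of all genes. Below 0 lay 16 of 23, against 53.5% of all genes, and the median log2 difference was -0.018. Cdh10, a type II cadherin best known from neurons, ran from 6.30 to 7.32 in wild type embryos (median 6.66) and from 6.13 to 6.75 in mutant embryos (median 6.41). Its log2 difference was -0.25 (standard error 0.092, limma adjusted p = 0.296), and 10 of 12 mutant embryos lay within the wild type range. Cdh13, or T-cadherin, is held to the membrane by a lipid anchor and has no cytoplasmic tail. It ran from 7.10 to 7.30 in wild type embryos (median 7.17) and from 6.80 to 7.30 in mutant embryos (median 7.03), and 8 of 12 mutant embryos lay below the lowest wild type embryo. The log2 difference of Cdh13 was -0.12 (standard error 0.045, limma adjusted p = 0.275).

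Cdh3, the P-cadherin of surface ectoderm, was the one member with an unadjusted p under 0.05 in the other direction. It ran from 10.40 to 10.78 in wild type embryos (median 10.65) and from 10.51 to 10.90 in mutant embryos (median 10.76). The groups overlapped over most of their range, and 7 of 12 mutant embryos lay within that of the wild type. The log2 difference was 0.12 (standard error 0.047, limma adjusted p = 0.356), and 10 of 12 mutant embryos lay above the mean of the wild type. With a covariate for sex it was 0.088. The mean of the 9 mutant males exceeded that of the 4 wild type males by 0.14, and the females of the genotypes differed by 0.020.

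Of the 8 members later set against markers of a cell type, Cdh2, Cdh11 and Cdh3 had 95% intervals on one side of 0, and those of the other 5 included 0. The 95% interval of the log2 difference ran from -0.13 to 0.015 for Cdh1, which holds epithelia together, and from -0.098 to 0.033 for Cdh5, which joins endothelial cells. For Pcdh12, a protocadherin of endothelium, it ran from -0.12 to 0.043. The interval was wider for Cdh15, the M-cadherin of muscle precursors (-0.17 to 0.15), and lay between -0.097 and 0.091 for Cdh19 of Schwann cell precursors, which was dimmer than the olfactory receptor guide level. A p that misses the threshold does not show that these genes were equal between the genotypes.

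Probe sets of a gene did not always run together. Cdh24, a type II cadherin, had a log2 difference of -0.13 at its brighter probe set (standard error 0.059, limma over single probe sets, adjusted p = 0.540) and 0.025 at the other. Cdh18, also of type II, had 0.026 at the brighter and -0.065 at the dimmer probe set. The second probe set of Pcdh9 had a log2 difference of -0.060, against -0.21 at the first. Cdh6, which marks the developing kidney and neural crest, had one of the larger spreads among wild type embryos (SD 0.23, from 8.90 to 9.54), and its log2 difference was 0.021 (standard error 0.076).

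The 12 non-clustered protocadherins all had log2 differences below 0, against 53.5% of all genes, although none of them passed the test over all genes. At an unadjusted p below 0.05 from limma, 6 were lower and 0 higher, against 5.14% and 4.13% of all genes. The median log2 difference was -0.085. With array medians set to 0, and with the interquartile range of each array as a covariate, 11 of 12 were below 0, and the exception in both was Pcdh20, whose log2 difference in the main fit was -0.0036. When the log2 levels of the 12 genes were averaged in each embryo, the mean ran from 7.75 to 7.89 in wild type embryos (median 7.79) and from 7.59 to 7.75 in mutant embryos (median 7.68). The groups overlapped through a single mutant embryo, and the other 11 of 12 lay below the lowest wild type embryo. The genes did not contribute equally to this mean. Pcdh10, Pcdh11x and Pcdh9 had the largest log2 differences (-0.47, -0.27 and -0.21), and those of Pcdh7, Pcdh8, Pcdh12, Pcdh15, Pcdh19 and Pcdh20 lay between -0.053 and -0.0036. For the 23 numbered cadherins the mean ran between 7.28 and 7.44 in wild type and between 7.22 and 7.41 in mutant embryos, and 5 of 12 mutant embryos lay below the lowest wild type embryo. For Pcdhb1 to Pcdhb15 it ran from 5.31 to 5.52 and from 5.22 to 5.49, and the corresponding number was again 5 of 12. Whether the subfamilies differed from one another in the genotype effect was not tested.

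**Figure D2:**
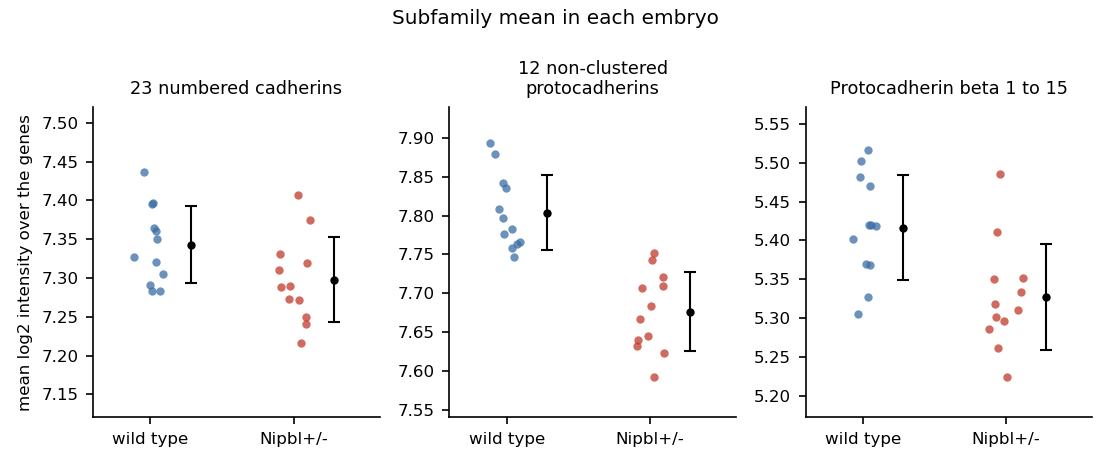
Mean log2 intensity over the genes of each subfamily for single embryos (12 wild type in blue, 12 Nipbl+/- in red), and black marks give the mean and SD of a genotype. The 3 vertical axes span the same log2 range around different levels and do not start at 0. The mean of the 12 non-clustered protocadherins runs between 7.75 and 7.89 in wild type and between 7.59 and 7.75 in mutant embryos.

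Among the delta-1 protocadherins, which have the longer extracellular domain of the delta group, 4 of 4 were below 0 and the median log2 difference was -0.17. Pcdh9 ran from 6.60 to 7.08 in wild type embryos (median 6.70) and from 6.34 to 6.73 in mutant embryos (median 6.54). All mutant embryos lay below the mean of the wild type, and 8 of 12 lay below the lowest wild type embryo. The log2 difference was -0.21 (standard error 0.054, ratio 0.865, limma adjusted p = 0.0631), and Pcdh9 passed in 5 of 12 alternatives (adjusted p from 0.0258 to 0.184). It was -0.22 between males and -0.28 between females of the genotypes.

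Pcdh11x, an X-linked protocadherin of the brain, ran from 6.24 to 7.09 in wild type embryos (median 6.85) and from 6.22 to 6.78 in mutant embryos (median 6.52). The ranges overlapped almost entirely, and this rested on 2 wild type embryos that lay far below the rest. The log2 difference was -0.27 (standard error 0.078, ratio 0.830, limma adjusted p = 0.129). It was -0.27 between males and -0.28 between females of the genotypes, and with a covariate for sex it was -0.27 (limma, adjusted p = 0.199). Pcdh1, of epithelia and airway, ran from 6.95 to 7.22 in wild type embryos (median 7.09) and from 6.77 to 7.14 in mutant embryos (median 6.93). Below the lowest wild type embryo lay 7 of 12 mutant embryos, and the log2 difference was -0.14 (standard error 0.042, limma adjusted p = 0.170).

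The delta-2 protocadherins had 5 of 5 members below 0 and a median log2 difference of -0.12. Pcdh10, or OL-protocadherin, on chromosome 3, had the lowest ratio of the 50 members, 0.722. It ran from 7.35 to 8.53 in wild type embryos (median 7.60) and from 6.56 to 7.69 in mutant embryos (median 7.31). Every mutant embryo lay below the mean of the wild type, 6 of 12 lay below the lowest wild type embryo, and the spread within each genotype was wide. The SD among wild type embryos was 0.34, above that of 99.3% of genes. The log2 difference was -0.47 (standard error 0.14, limma adjusted p = 0.124). It was -0.65 between males and -0.54 between females of the genotypes, and it passed with a covariate for sex (-0.60, limma adjusted p = 0.0368).

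Pcdh18, a delta-2 protocadherin of mesenchyme, ran from 11.73 to 12.00 in wild type embryos (median 11.89) and from 11.63 to 11.87 in mutant embryos (median 11.76). All mutant embryos lay below the mean of the wild type, and 5 of 12 lay below the lowest wild type embryo. The log2 difference was -0.12 (standard error 0.036, ratio 0.922, limma adjusted p = 0.168). Pcdh17, of the same group, had a log2 difference of -0.14 (standard error 0.046, limma adjusted p = 0.238), and 11 of 12 mutant embryos lay below the mean of the wild type. The remaining delta protocadherins, Pcdh7, Pcdh8 and Pcdh19, had log2 differences of -0.049, -0.027 and -0.053, and Pcdh15, a component of the tip links of hair cells in the ear, had -0.028.

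The promoters of Pcdh9, Pcdh10, Pcdh17 and Pcdh18 are shown because these were the 4 non-clustered members with an unadjusted p under 0.05 from limma that had an entry in the promoter table. They are the 250 bases before the first RefSeq transcription start (GRCm38.p6), written 5′ to 3′ on the strand of the gene, and capitals mark GC boxes (GGGCGG) and CCAAT boxes (CCAAT) on either strand. The regions are chr14:93890680-93890929 (minus strand) for Pcdh9, chr3:45378148-45378397 (plus strand) for Pcdh10, chr14:84443313-84443562 (plus strand) for Pcdh17 and chr3:49757317-49757566 (minus strand) for Pcdh18.
Pcdh9: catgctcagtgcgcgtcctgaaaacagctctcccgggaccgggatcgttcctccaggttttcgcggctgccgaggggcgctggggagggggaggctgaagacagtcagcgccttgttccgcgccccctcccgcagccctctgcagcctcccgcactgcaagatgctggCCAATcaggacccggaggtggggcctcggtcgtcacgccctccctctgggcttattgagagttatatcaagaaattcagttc
Pcdh10: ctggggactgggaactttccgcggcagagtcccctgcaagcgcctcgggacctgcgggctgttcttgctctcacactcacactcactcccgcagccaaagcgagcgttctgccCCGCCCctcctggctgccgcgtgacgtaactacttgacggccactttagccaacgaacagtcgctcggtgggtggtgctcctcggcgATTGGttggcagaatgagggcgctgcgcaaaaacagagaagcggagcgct
Pcdh17: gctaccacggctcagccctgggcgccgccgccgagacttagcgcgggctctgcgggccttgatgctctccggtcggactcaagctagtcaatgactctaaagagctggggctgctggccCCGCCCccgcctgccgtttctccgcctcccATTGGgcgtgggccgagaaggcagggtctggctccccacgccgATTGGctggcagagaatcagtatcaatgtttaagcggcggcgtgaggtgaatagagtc
Pcdh18: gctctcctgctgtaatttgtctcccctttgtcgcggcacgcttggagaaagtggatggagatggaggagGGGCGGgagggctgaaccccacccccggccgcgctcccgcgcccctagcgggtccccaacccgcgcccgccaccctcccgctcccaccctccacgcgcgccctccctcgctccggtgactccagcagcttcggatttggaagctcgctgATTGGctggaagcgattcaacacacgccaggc
All 4 hold a CCAAT box, and Pcdh17 holds 2. The CpG dinucleotides number 18, 22, 21 and 23 in the same order, against a median of 6 over the 27025 promoters of the table. A promoter was found for 22 of the 50 members, of which 9 were non-clustered protocadherins and 13 were numbered cadherins. A CCAAT box was in 8 of 9 promoters of non-clustered protocadherins, 6 of 13 of numbered cadherins and 34.5% of all promoters. A GC box was in 4 of 9, 5 of 13 and 32.9%, a TATA box (TATAAA) in 2 of 9, 0 of 13 and 13.0%, and the CACCTG form of the E-box in 1 of 9, 1 of 13 and 17.1%. No 2 of these motifs share bases where they are marked. The median number of CpG dinucleotides was 16 for non-clustered protocadherins and 7 for numbered cadherins. These matches describe the letters in the window and are not shown to be bound.

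The beta protocadherins Pcdhb1 to Pcdhb15, single-exon genes arrayed on chromosome 18, were mostly dim in the hindlimb bud, and 3 of 15 exceeded the olfactory receptor guide level. None was called by limma. At an unadjusted p below 0.05 from limma, 3 were lower and 0 higher, against 5.14% and 4.13% of all genes. The log2 difference was below 0 for 14 of 15, against 53.5% of all genes, and the median was -0.096. Their sequences are alike, so probes may detect more than one gene of the cluster. Pcdhb3 ran from 5.33 to 5.99 in wild type embryos (median 5.51) and from 5.10 to 5.78 in mutant embryos (median 5.26). Below the lowest wild type embryo lay 8 of 12 mutant embryos, and the log2 difference was -0.25 (standard error 0.075, ratio 0.840, limma adjusted p = 0.138). Pcdhb6 ran from 6.10 to 6.45 in wild type embryos (median 6.25) and from 5.79 to 6.32 in mutant embryos (median 6.09), and again 8 of 12 mutant embryos lay below the lowest wild type embryo. Its log2 difference was -0.16 (standard error 0.055, limma adjusted p = 0.247).

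Pcdhb11, Pcdhb4 and Pcdhb10 had log2 differences of -0.13, -0.11 and -0.096 (adjusted p = 0.369, 0.587 and 0.585 from limma). Pcdhb7 had a wide spread among wild type embryos (SD 0.24), and its log2 difference was -0.11 (standard error 0.076). Pcdhb1, at one end of the cluster, was the exception in direction, with a log2 difference of 0.072 (standard error 0.068, limma adjusted p = 0.857). The neighbouring genes Pcdhb16 to Pcdhb22, which are not among the 50 members, had 6 of 7 called lower, against 0.527% of all genes. Their median log2 difference was -0.45, and 0 of 7 exceeded the olfactory receptor guide level. A single probe set that carried 14 Pcdha symbols had a log2 difference of -0.051 (standard error 0.048, limma over all probe sets, adjusted p = 0.887), and 10 of 12 mutant embryos lay below the mean of the wild type.

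**Figure D3:**
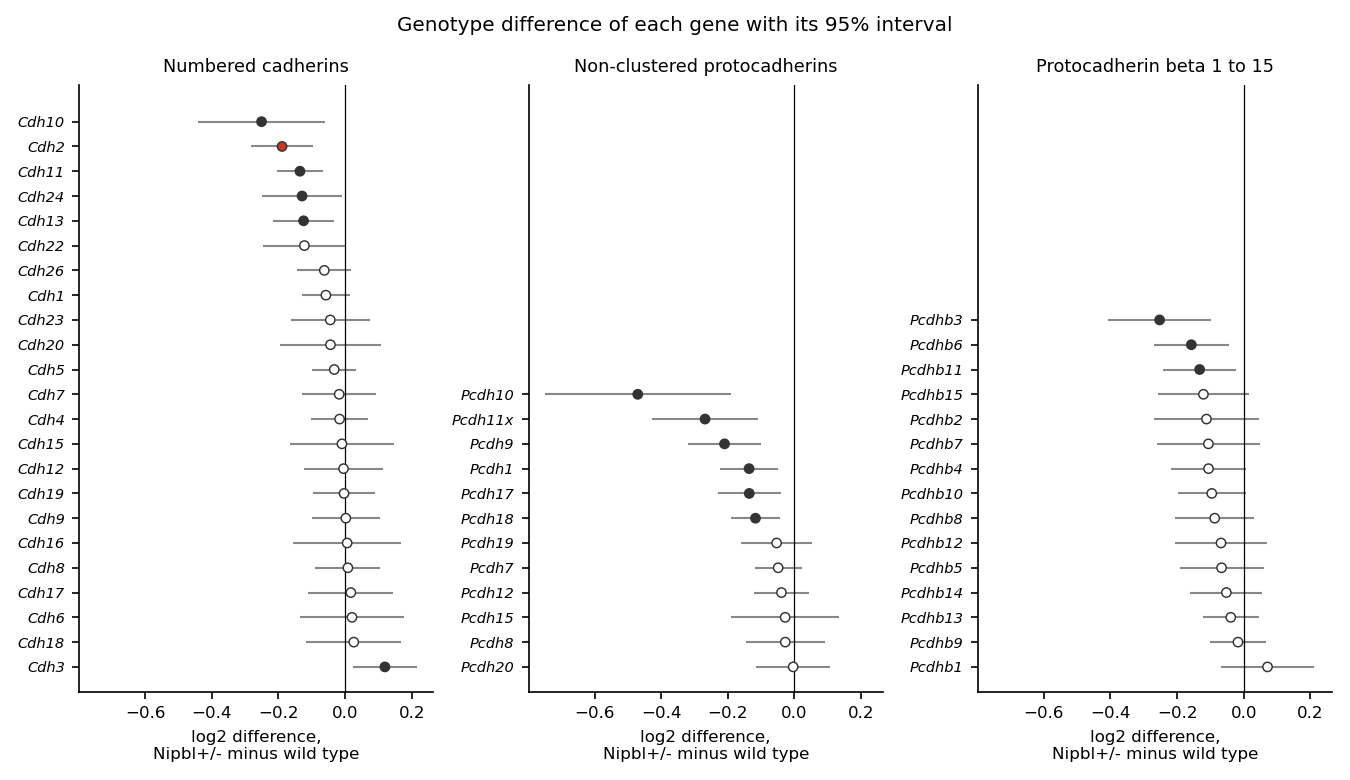
Log2 difference (Nipbl+/- minus wild type, 12 embryos each) of each of the 50 members with its 95% interval, by subfamily. The red point is Cdh2, with an adjusted p of 0.0372 from limma, black points have an unadjusted p under 0.05 and white points do not. All 12 non-clustered protocadherins lie below 0, as do 14 of 15 beta protocadherins and 16 of 23 numbered cadherins, against 53.5% of all genes.

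The genes that work with cadherins inside the cell were then examined. For comparison, limma called 0.527% of all genes lower and 0.286% higher. At an unadjusted p under 0.05 from limma the shares were 5.14% and 4.13%. Of 17 adherens junction partners, 0 were called (from limma, with 2 higher and 0 lower at an unadjusted p below 0.05), and the median log2 difference was -0.0040. Afdn, or afadin, which ties nectins to actin, had a log2 difference of 0.14 (standard error 0.043, limma adjusted p = 0.147), and Ctnnd1, or p120-catenin, which holds classical cadherins at the surface, had 0.10 (standard error 0.032, limma adjusted p = 0.197). Both lay above the mean of the wild type in 12 of 12 mutant embryos, and neither passed the test. Ctnnb1, or beta-catenin, had a log2 difference of -0.017 (95% interval -0.076 to 0.042). Of 12 desmosomal genes, 0 were called (from limma, 2 higher and 1 lower at an unadjusted p below 0.05), and Pkp2 and Dsc3 had log2 differences of 0.15 and -0.11. Of 10 genes for proteases and turnover of cadherins 0 were called (from limma, 0 higher and 1 lower at an unadjusted p below 0.05), and Mmp14 and Mmp2, matrix metalloproteinases, had -0.12 and -0.055. Of 9 protocadherin effectors, 0 were called and 0 had an unadjusted p under 0.05 from limma, and the WAVE complex subunits Nckap1 and Cyfip2 had 0.13 and -0.089.

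Of 15 transcription factors known to repress or maintain Cdh1, 1 fell, 0 rose and 14 did not pass. The lower one was Snai2, or Slug, a zinc finger repressor that marks mesenchyme and migrating neural crest. Its log2 difference was -0.29 (standard error 0.055, ratio 0.815, limma adjusted p = 0.00374), and it lay below the mean of the wild type in 12 of 12 mutant embryos. Zeb2, another repressor of Cdh1, also lay below the mean of the wild type in 12 of 12 mutant embryos, with a log2 difference of -0.15 (standard error 0.051, limma adjusted p = 0.224). Cdh1 itself lay below the mean of the wild type in 9 of 12 mutant embryos, with a log2 difference of -0.058 (standard error 0.035, limma adjusted p = 0.689).

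Of 14 chromatin regulators of the clustered protocadherins, Nipbl fell and Stag1, a cohesin subunit, rose (log2 difference 0.22, standard error 0.041, limma adjusted p = 0.00439), and 12 did not pass. Ctcf, the DNA-binding protein that positions cohesin at protocadherin promoters, had a log2 difference of 0.0070 (95% interval -0.065 to 0.079).

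**Figure D4:**
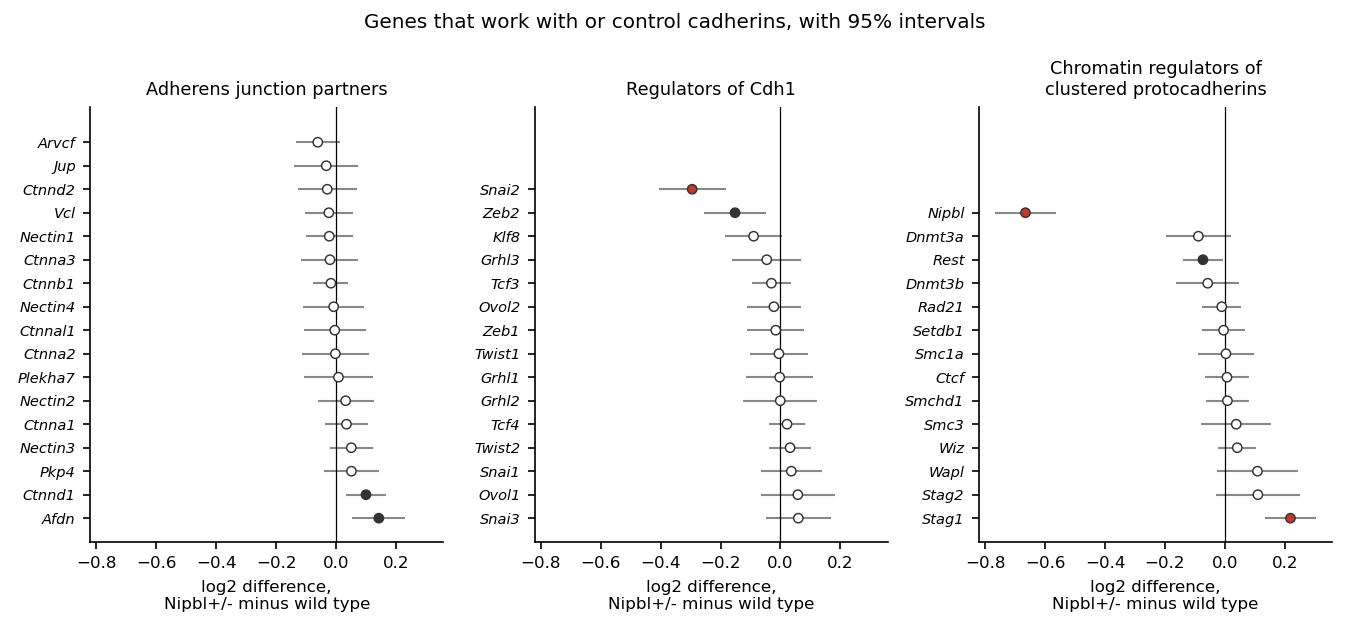
Log2 difference (Nipbl+/- minus wild type, 12 embryos each) with its 95% interval for 17 adherens junction partners, 15 regulators of Cdh1 and 14 chromatin regulators of the clustered protocadherins. Red points are genes called by limma (Snai2, Nipbl and Stag1), black points have an unadjusted p under 0.05 and white points do not.

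Levels of cell-type cadherins were finally set against the markers of those cell types across the 24 embryos, with the mean of each genotype removed. Cdh15 followed the mean of 9 measured muscle precursor markers, which include Pax3, Myf5 and Myod1 (Pearson r = 0.79, adjusted p = 8.0e-05, and Spearman rho = 0.68, adjusted p = 0.00312, from permutation tests over 8 relations). The unadjusted p of this r, 1e-05, is the smallest that the permutations can give. Without the 2 embryos farthest from the median marker level, r was 0.72 (adjusted p = 0.00112, permutation test), and it was 0.71 within wild type and 0.85 within mutant embryos. Mutant embryo 2, among those left out there, was highest in both Cdh15 and this list (0.52 and 0.23 above the genotype mean). Its array was among the 3 of narrow interquartile range, and none of the 8 relations was tested without those 3 arrays. Cdh1 followed 13 ectoderm and epithelial markers (r = 0.76, adjusted p = 2.0e-04, and rho = 0.64, adjusted p = 0.00444, permutation tests). Without the 2 farthest embryos r was 0.49 (unadjusted p = 0.0190, adjusted p = 0.0762, permutation test), so that after adjustment the relation rested on those embryos. With array medians set to 0 over all 24 embryos r was 0.76. There the same array median was subtracted from the gene and its markers, which can by itself move r. Within wild type embryos r was 0.44, and within mutant embryos it was 0.88.

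Cdh11 followed 8 mesenchyme markers (r = 0.54, adjusted p = 0.0177, and rho = 0.48, adjusted p = 0.0514, permutation tests), and this too no longer held without the 2 farthest embryos (r = 0.37, adjusted p = 0.237, permutation test). With array medians set to 0 over all 24 embryos r was 0.71 (adjusted p = 4.0e-04, permutation test). The same median was then taken from the gene and its markers, which can by itself raise r. That value therefore does not decide whether the relation holds. Cdh2 did not follow the same markers (r = -0.20, adjusted p = 0.390, and rho = -0.23, adjusted p = 0.319, permutation tests). For Cdh3 and the ectoderm markers r was 0.17 and rho 0.13 (adjusted p = 0.435 and 0.538, permutation tests), for Cdh5 and 12 endothelial markers 0.27 and 0.25 (0.264 and 0.319), for Pcdh12 and the same markers 0.37 and 0.32 (0.140 and 0.211), and for Cdh19 and the Schwann cell markers without Cdh19 itself 0.36 and 0.36 (0.140 and 0.169). Without the 2 farthest embryos these 5 values of r, for Cdh2 and then in the order above, were -0.062, 0.11, 0.34, 0.28 and 0.22.

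The genotypes overlapped in the mean level of every marker list. The mean log2 level of the ectoderm list ran between 8.85 and 9.06 in wild type and between 8.87 and 9.22 in mutant embryos, and 1 of its 13 genes was called, the basal keratin Krt5, which fell by 0.31 on the log2 scale (limma, adjusted p = 0.00171). The endothelial list ran from 8.70 to 9.12 and from 8.76 to 9.09, with 0 of 12 called, and the muscle precursor list from 7.04 to 7.38 and from 7.10 to 7.50, with 0 of 9 called. Of 6 measured Schwann cell and neural crest markers, Erbb3, a neuregulin receptor, rose (log2 difference 0.25, limma adjusted p = 0.0499), and the list ran from 6.30 to 6.50 and from 6.25 to 6.59. The neuron list ran from 6.83 to 7.02 and from 6.87 to 7.01, with 0 of 9 called. The blood and macrophage list ran between 7.98 and 8.33 in wild type and between 7.98 and 8.15 in mutant embryos, with 0 of 9 called and 11 of 12 mutant embryos below the mean of the wild type, a difference in the mean of -0.081 and 7 of 9 genes below 0.

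**Figure D5:**
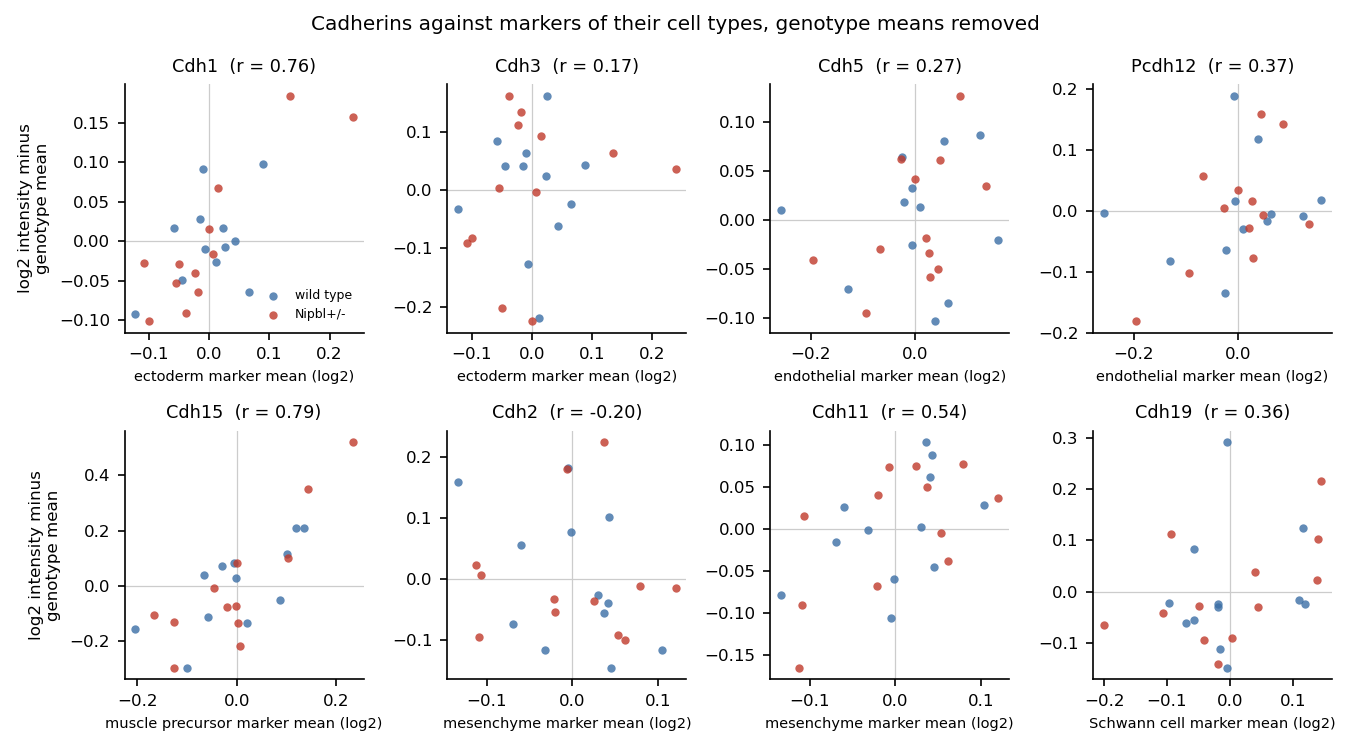
Log2 intensity of 8 cadherins against the mean log2 level of markers of their cell type in 24 embryos (12 wild type in blue, 12 Nipbl+/- in red), both with the mean of the genotype removed. Pearson's r stands over each panel. Cdh15 (r = 0.79) and Cdh1 (r = 0.76) rise with their markers, and 2 mutant embryos at the upper right contribute to the relation of Cdh1.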

How the data were processed

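RNA of 24 hindlimb bud samples was hybridised to Mouse Gene 1.0 ST arrays of Affymetrix. The authors used GenePattern's Expression File Creator and deposited log2 intensities per probe set. The submitters' processing notes name RMA, without a version. RMA corrects background and equalizes array distributions, which can hide a shift common to most genes. Array medians still ran from 7.24 to 7.39 and interquartile ranges from 3.34 to 3.84, so the deposited distributions were not fully equal. Of the arrays, 0 pairs were identical. The number of arrays limits the precision.

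Of 28159 probe sets, 21640 had 1 gene symbol, 1321 had several and 5198 had none listed. By Entrez ID 21553 matched RefSeq genes (GRCm38.p6). The brightest probe set of each gene, over all arrays, left 19937 genes. Genotypes were compared with limma 3.58.1 (lmFit and eBayes, genotype only) in R 4.3.3, with Benjamini-Hochberg adjustment over all genes. The study's own module, Comparative Markers Selection, is named in its methods without a statistic. Correlations used 100000 two-sided permutations. The fit was tested on simulated data. Python 3.11.15 with matplotlib 3.10.9 drew the figures.

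The members, gene lists and markers were chosen with earlier results of these data known. Genes named are called members, the 5 of smallest p in each subfamily, the 8 cadherins of the correlations, the 5 of largest wild type SD, members whose probe sets differ in direction, and, of the other lists, called genes and the 2 of smallest p. Pcdh17, the other delta protocadherins, Pcdh15, Pcdh20, Pcdhb1, Pcdhb15, Ctnnb1 and Ctcf were named after their values were seen. The labels call the replicates biological and do not name litters. The study describes the embryos as littermates, but litter could not enter the fit, and p-values rest on the spread between these embryos. Embryo sex was read from Xist and Y-linked genes. Over all genes, replicate numbers did not consistently pair the samples, and pairing was not tested within single members.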

Additional observations from a re-analysis of the deposited data

How the results depend on the processing

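The medians of the subfamilies kept their sign under the alternatives on the log2 scale (they were not computed for the Welch test on linear values), from -0.051 to -0.0060 for numbered cadherins, from -0.12 to -0.073 for non-clustered protocadherins and from -0.11 to -0.084 for Pcdhb1 to Pcdhb15. Against 1 member called lower in the main fit (Cdh2), 3 were called among genes above the olfactory receptor level, with a covariate for sex, with the first principal component of residuals and with the interquartile range of each array, 2 with a trended and robust variance, with array weights and with a Welch test on linear values, 0 with array medians set to 0 and 10 at an adjusted p under 0.25, where 380 of all genes were lower. In the fit with sex these were Cdh11, Pcdh9 and Pcdh10, without Cdh2. Over all genes, same-numbered embryos did not consistently deviate together (r from -0.35 to 0.28 over 12 pairs, median -0.022). Of 12 wild type embryos, 3 correlated best with their own number. Single members could differ from this. Pcdh10 and Cdh11 were lowest in embryos 11 and 12 of both genotypes, whereas Cdh2 was highest in wild type embryos 11 and 12 but not in mutant ones. These genes were picked after their values were seen, and pairing within single members was not tested. With the replicate number as a block 4 members were called lower (Cdh11, Pcdh9, Pcdh10 and Pcdhb3, not Cdh2). Without the 3 arrays of narrow interquartile range, an alternative chosen after seeing the data, 1 was called, and it was Pcdhb15 (adjusted p = 0.0177 in limma, against 0.624 in the main fit) in place of Cdh2. Among partners and regulators, 2 were higher with array weights and 3 with the first principal component or the interquartile range, against 1. The number of all genes called lower ran from 67 to 303 at the same threshold. The causes were not tested.

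The log2 difference changed sign for Cdh15 with array medians set to 0 (0.0023), with the interquartile range (0.0047) and on linear values (0.0016), for Cdh19 with sex (0.0042) and array medians set to 0 (0.0087), and for Cdh18 with all probe sets averaged (-0.019). None of these passed in any setting. The r of Cdh1 was 0.49 without the 2 farthest embryos and 0.44 within wild type, and no longer passed. That of Cdh11 was 0.37, 0.47 within wild type and 0.59 within mutant embryos, and no longer passed. That of Cdh15 was 0.71 within wild type, which did not pass over 12 embryos. The sign of r changed for Cdh3 within wild type (-0.022) and for Cdh2 within mutant embryos (0.014) and with array medians set to 0 (0.042). With array medians set to 0, r rose to 0.65 for Cdh5 and 0.64 for Pcdh12, and both passed. That of Cdh11 was 0.71 and that of Cdh1 0.76, while that of Cdh15 fell to 0.65 from 0.79. In this setting the same array median was subtracted from a cadherin and its markers, which can by itself move r. These values therefore do not decide whether the relations hold.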

Other observations

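A difference between sexes in the genotype effect was tested for the 50 members with an interaction term in limma, and 0 had an adjusted p under 0.05 (3 had an unadjusted p under 0.05, and the lowest adjusted p was 0.569). The 3 were Cdh24, Cdh19 and Cdh13, where the log2 difference in females minus that in males was -0.34, -0.25 and -0.20. With 3 mutant females and 4 wild type males these values rest on few embryos.

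By chromosome, 17 of 18 members on chromosome 18 had a log2 difference below 0 (median -0.10), against 53.5% of all genes on any chromosome. Other genes of chromosome 18 were not counted, so these values do not describe the chromosome. The 18 comprise Cdh2, Pcdh1, Pcdh12 and the 15 genes Pcdhb1 to Pcdhb15. Those 15 were mostly dim, and their probes may detect more than 1 gene, so they may not be separate observations. Members below 0 numbered 5 of 5 on chromosome 14 (median -0.13), 5 of 8 on chromosome 8 (median -0.021) and 2 of 5 on chromosome 15 (median 0.0023). The other chromosomes held 1 to 3 members each.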
